A study of Rattus norvegicus with 4 samples.

Results

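The 8 podocyte genes described here are Nphs1, Podxl, Synpo, Wt1, Ptpro, Actn4, Cd2ap and Plce1. They were chosen by gene symbol from the array annotation, which names 14871 genes, and 14 of the 45220 array features bear one of these symbols. Where several features stood for 1 gene, they were averaged on each array. The samples were renal allografts of Lewis rats given daily intravenous injections of an ApoE-mimetic peptide at 6 mg/kg or of a control peptide from the day of transplantation, and taken on day 4. All animals of both groups carried an allogeneic kidney, and no group without a transplant or without a peptide was analysed here. No label gives the donor strain, the dose of the control peptide or the age of the animals. A pair of samples, 1 ApoE-mimetic and 1 control, was hybridised to each of 4 two-colour Agilent arrays, labelled with Cy5 and Cy3 on replicates 1 and 3 and the other way round on replicates 2 and 4.

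Podocytes are the epithelial cells that cover the outside of the glomerular capillaries, and their interlocking foot processes are bridged by the slit diaphragm, the last layer of the blood filter. Nephrin, encoded by Nphs1, forms the diaphragm, and CD2AP, encoded by Cd2ap, is an adaptor that ties nephrin to the actin cytoskeleton. Podocalyxin (Podxl) is a charged sialomucin that keeps the foot processes apart. Synaptopodin (Synpo) and alpha-actinin 4 (Actn4) organise the actin bundles, Ptpro encodes a receptor tyrosine phosphatase of the apical membrane, Plce1 a phospholipase C needed in glomerular development, and Wt1 the transcription factor that maintains podocyte identity. Nephrin, synaptopodin and WT1 mark the podocyte within the adult kidney, whereas podocalyxin is also made by endothelium, PTPRO by some leukocytes, and alpha-actinin 4 and CD2AP by many cell types.

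Nephrin and podocalyxin carry the main pattern described below, and the stretch around each gene's start is shown for that reason. Both are from RefSeq on the GRCr8 build, run 5′ to 3′ on the gene's strand, and cover 250 bases before to 50 bases after the start. Capitals mark matches to any of the motifs named after the sequences. Nphs1 lies at chr1:94848261-94876522 and its window at chr1:94848011-94848310 on the plus strand. Podxl lies at chr4:61102434-61149131 and its window at chr4:61149082-61149381 on the minus strand.
Nphs1: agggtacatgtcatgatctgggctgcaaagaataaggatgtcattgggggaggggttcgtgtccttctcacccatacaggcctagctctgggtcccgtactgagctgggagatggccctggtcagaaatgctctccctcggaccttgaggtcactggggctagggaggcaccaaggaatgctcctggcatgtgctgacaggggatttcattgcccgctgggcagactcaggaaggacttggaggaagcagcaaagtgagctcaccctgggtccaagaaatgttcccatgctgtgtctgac
Podxl: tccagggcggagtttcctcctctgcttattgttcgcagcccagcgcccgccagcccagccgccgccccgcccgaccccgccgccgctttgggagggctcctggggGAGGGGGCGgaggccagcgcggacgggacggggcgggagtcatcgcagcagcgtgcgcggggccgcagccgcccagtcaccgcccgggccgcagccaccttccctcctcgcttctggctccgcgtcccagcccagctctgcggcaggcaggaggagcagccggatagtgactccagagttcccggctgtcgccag
The Podxl window holds 1 match to GNGGGGGNG, a relaxed form of a motif bound by WT1, whose first base lies at -145 from the start. That motif has a match on either strand in 16.5% of 33469 rat promoter windows of the same length. Neither window holds the stricter WT1 motif GCGGGGGCG, which is found in 2.73% of windows and is one case of the relaxed form. Nor do they hold CAGCTG, an E-box of the kind bound by TCF21 (15.1%), or TAATTA, an LMX1B-type site (5.36%). G and C made up 56.3% of the Nphs1 window and 74.7% of the Podxl window, against a median of 51.7% over all windows. Of the 8 members, 6 had such a window. Among these the relaxed WT1 motif was in Podxl and Cd2ap, and the stricter one and CAGCTG were in Cd2ap alone. A match is a string of letters and not a measured binding site.

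Values below are log2 ratios of the channels of an array, relative to the array's median gene. The deposited columns had median genes of -0.22, -0.04, -0.11 and -0.55 on replicates 1 to 4, and these were subtracted. Neither the labels nor the values settle which peptide is in the numerator. Replicates 1 and 3 have the same labelled dye orientation, yet their ratios had a Pearson correlation of -0.238 over all features and of -0.657 over 13363 features with a distinct signal, neither dim nor saturated. Over those 13363 features it was 0.393 for replicates 1 and 4 and -0.267 for replicates 3 and 4. With replicate 2 it was -0.426 for replicate 1, 0.423 for replicate 3 and -0.043 for replicate 4. Features are not independent replicates in these correlations. A feature was taken as dim or saturated on an array where more than 2 features held exactly its value, or where it held the shared value next to 0. Replicate 4 stood apart, with an SD of 1.26 over features against 0.87 to 0.89, and it had a trend across the array grid. Sides and values on single arrays are given as deposited, and the comparison of the peptides is given for both readings of the columns.

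The other members lie on the same build at chr18:56326369-56347359 (Synpo), chr3:112019721-112068454 (Wt1), chr4:171895104-172105911 (Ptpro), chr1:93310294-93379369 (Actn4), chr9:25580071-25679968 (Cd2ap) and chr1:245655855-245964966 (Plce1). How well each gene was measured differed among the 8. Of their 14 features, 7 were neither dim nor saturated on any array. These 7 were the only feature of Nphs1, both features of Podxl, 1 of 2 for Ptpro, 1 of 2 for Actn4 and 2 of 4 for Cd2ap. Synpo, Wt1 and Plce1 each rest on 1 feature, which was dim or saturated on 4 of 4 arrays for Wt1, 3 for Synpo and 2 for Plce1. Thus of the genes that mark podocytes most narrowly, nephrin alone had a feature that was neither. Ratios carry no level of expression, so the data do not show how abundant podocyte RNA was in these grafts.

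Nephrin transcript differed strongly between the channels on 3 of 4 arrays. Nphs1 had -1.28 on replicate 1, -0.20 on replicate 2, 1.93 on replicate 3 and -1.57 on replicate 4. In folds, it lay 2.43-fold below the median gene on replicate 1, 2.98-fold below it on replicate 4 and 3.81-fold above it on replicate 3. Replicate 2 was near the median gene. Among all named genes these values stood at percentiles 5.30, 35.3, 97.7 and 7.74. Replicates 1 and 3, which share a labelled orientation, gave Nphs1 opposite sides, as they did 57.4% of all named genes. With dim and saturated features left out, this was 70.1% of 6731 genes.

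Podocalyxin showed the same sides as nephrin on replicates 1, 3 and 4. Podxl had -1.24 on replicate 1, 0.58 on replicate 2, 0.77 on replicate 3 and -1.46 on replicate 4. It was at percentiles 5.61, 80.2, 88.2 and 9.34. Its 2 features, placed at columns 74 and 46 of the array grid, differed from each other by 0.02, 0.02, 0.24 and 0.07 on replicates 1 to 4. Over the 1057 genes with exactly 2 such features, the median difference was 0.27, 0.24, 0.19 and 0.27. Both features thus gave the same sides on every array, while the gene ranged over 2.23 log2 units between the arrays. The agreement of features on 1 array measures the array and not the spread between animals.

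Nphs1 and Podxl were at least 1 log2 unit below the median gene on both replicates 1 and 4, a criterion chosen after the values were seen. It was met by 2 of the 8 members and by 2.24% of all named genes. The pair agreed closely on these arrays and less on the other two, where Nphs1 was lower than Podxl on replicate 2 and higher on replicate 3. The Euclidean distance between them over the 4 arrays was 1.41 log2 units, and 44 of 6726 other genes with a feature neither dim nor saturated lay nearer to Nphs1 than Podxl did, and 451 nearer to Podxl than Nphs1 did. On replicate 4 the array's own trend at the column of Nphs1 was 0.39, opposite in sign to the gene's value. With that trend removed, Nphs1 had -1.94 and Podxl -1.66 on replicate 4.

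**Figure D1:**
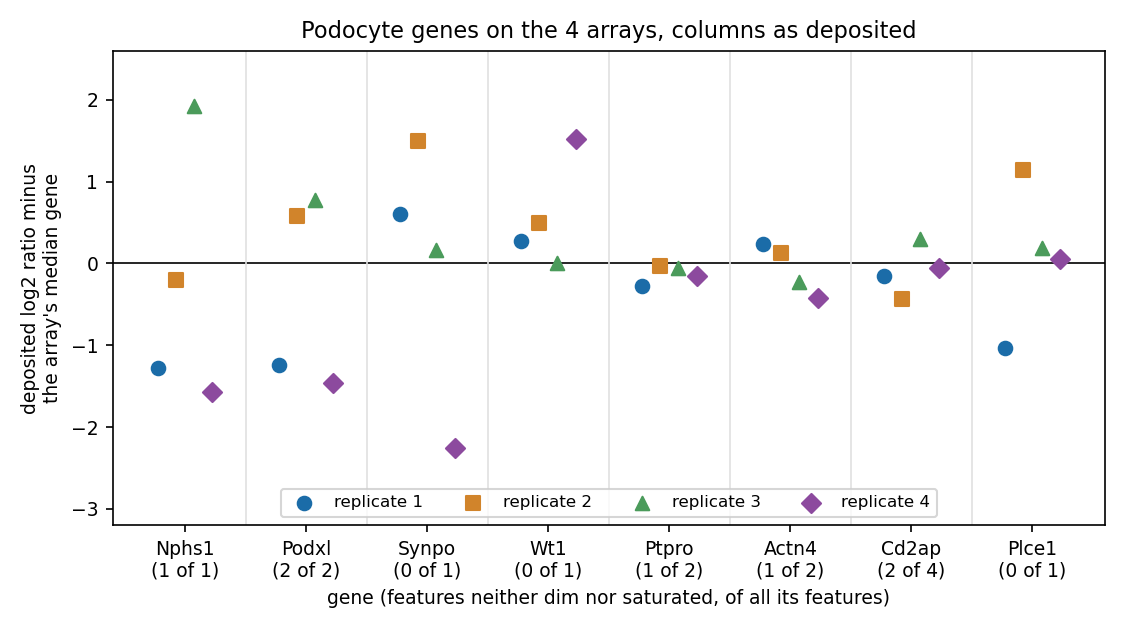
Log2 ratio of the 8 podocyte genes on each of the 4 arrays, as deposited and relative to the array's median gene; each point is 1 array, and the labels under the genes give features neither dim nor saturated. Nphs1 and Podxl lie below -1 on replicates 1 and 4 and above 0 on replicate 3, whereas Ptpro, Actn4 and Cd2ap stay within 0.44 of the median gene on all arrays.

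The membrane phosphatase and the broadly expressed cytoskeletal genes stayed close to the median gene. Ptpro had -0.27, -0.03, -0.06 and -0.15 on replicates 1 to 4. It was below the median gene on 4 of 4 arrays, as were 5.55% of all named genes, but by little on any of them. Its 2 features lay on opposite sides on replicates 2 and 3, with 0.37 and -0.43 on replicate 2 and -0.33 and 0.20 on replicate 3. For Actn4 the values were 0.24, 0.13, -0.23 and -0.42, and the feature that was neither dim nor saturated gave 0.18, 0.37, 0.07 and -0.43. Alpha-actinin 4 transcript thus moved by at most 0.42 from the median gene when all features were averaged.

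Cd2ap had -0.15, -0.44, 0.30 and -0.05 on replicates 1 to 4, and its features disagreed. The 2 features neither dim nor saturated gave -0.60 and 0.35 on replicate 1, -0.39 and -0.12 on replicate 2, 1.35 and 0.28 on replicate 3, and -0.13 and 0.46 on replicate 4. They differed by 0.95 and 1.07 on replicates 1 and 3, above the medians of 0.27 and 0.19 for 2 such features of a gene. The feature designed on an expressed sequence tag moved the way of Nphs1 on all 4 arrays, while the feature designed on the RefSeq transcript stayed within 0.46. The other 2 features of Cd2ap, dim or saturated on 4 of 4 arrays, spanned -1.87 to 1.33 on replicate 4. The small mean of Cd2ap is therefore an average of unlike features.

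Synpo, Wt1 and Plce1 had large ratios on single arrays, all from features that were dim or saturated on some. Synpo had 0.60, 1.50, 0.16 and -2.25 on replicates 1 to 4, and its feature was neither dim nor saturated on replicate 1 alone. Synaptopodin was thus opposite to nephrin on replicate 1 and on the same side on replicates 3 and 4. For Wt1 the values were 0.27, 0.49, 0.01 and 1.52, above the median gene on 4 of 4 arrays. On replicate 4, where nephrin, podocalyxin and synaptopodin were all below -1, Wt1 was the one member above 1, and with the grid trend removed it had 0.94. Plce1 had -1.03, 1.14, 0.19 and 0.06, with its feature neither dim nor saturated on replicates 1 and 2, where the sides were those of Podxl. All 3 genes were above the median gene on replicates 2 and 3 and differed in side on replicates 1 and 4.

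The median over the 8 genes stayed near the median gene. It was -0.21, 0.31, 0.18 and -0.29 on replicates 1 to 4, where the median over all named genes is 0 by construction. Between 2 and 6 of the 8 lay below the median gene on an array, namely 5, 3, 2 and 6. The spread among members was larger than these medians, with an SD over the 8 of 0.74, 0.67, 0.69 and 1.18. At least 1 log2 unit from the median gene on 2 or more arrays were Nphs1, Podxl, Synpo and Plce1, 4 of 8 against 23.8% of all named genes. With dim and saturated features left out these were Nphs1 and Podxl, 2 of 5 against 9.85% of 6731 genes.

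The comparison of the peptides asked whether podocyte transcripts differed between grafts of ApoE-mimetic and control animals. Read as Cy5 over Cy3 and turned by the labelled dye, Nphs1 was on the ApoE-mimetic side on 3 of 4 arrays, with -1.28, 0.20, 1.93 and 1.57 and a mean of 0.61 ± 1.46 (SD, n = 4). Podxl was on that side on 2 of 4 arrays, with -1.24, -0.58, 0.77 and 1.46 and a mean of 0.10 ± 1.23 (SD, n = 4). For both genes the spread between the 4 pairs exceeded the mean. The exact sign-flip test, two-sided over 4 arrays, gave p = 0.375 for Nphs1 and p = 0.875 for Podxl, where 4 arrays cannot give less than 0.125. If Cy3 is the numerator, all these signs turn and the p-values stay.

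In limma's test with a dye term, none of the 8 passed, and neither did any other gene. At an adjusted p under 0.05 there were 0 of 14871 genes, which is 0%, and 504 genes, 3.39%, had an unadjusted p under 0.05. Of the members, 0 of 8 had an adjusted or an unadjusted p under 0.05, and the unadjusted values ran from 0.201 to 0.879. Nphs1 had 0.61 (SE 0.62), Podxl 0.10 (SE 0.52), Synpo 0.38 (SE 0.66) and Cd2ap 0.16 (SE 0.25), with an adjusted p of 0.9999 each. On the control side, Plce1 had -0.51 (SE 0.36) and Wt1 -0.43 (SE 0.29). Synpo, Plce1 and Wt1 rest on features that were dim or saturated on 3, 2 and 4 of the arrays. Ptpro at -0.04 (SE 0.24) and Actn4 at 0.07 (SE 0.26) lay nearest to 0. The SE is that of the model, in which the dye term takes up part of the variation among the 4 pairs.

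With the columns assumed to have been turned before deposit, the signs of 6 of the 8 genes differed from those above. Nphs1 then had -0.28 (SE 0.62), Podxl -0.34 (SE 0.52), Actn4 -0.07 and Cd2ap -0.09, while Wt1 had 0.57 (SE 0.29) and Plce1 0.09. Synpo had 0.01 and Ptpro -0.13 under that reading. Again 0 of 14863 genes, 0%, had an adjusted p under 0.05 by limma, with 457 at an unadjusted p under 0.05 (3.07%) and 0 of the 8 members among them. Under the main reading 0 of 8 members had 1 sign on all 4 arrays, against 10.0% of all named genes. As already turned these were 2 of 8, Wt1 and Ptpro, against 11.4%. The feature of Wt1 was dim or saturated on 4 of 4 arrays. For Ptpro, the feature that was neither had 0.37 on replicate 2 and values below 0 on the others. The test thus gave no direction between the peptides for any of the 8 genes.

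**Figure D2:**
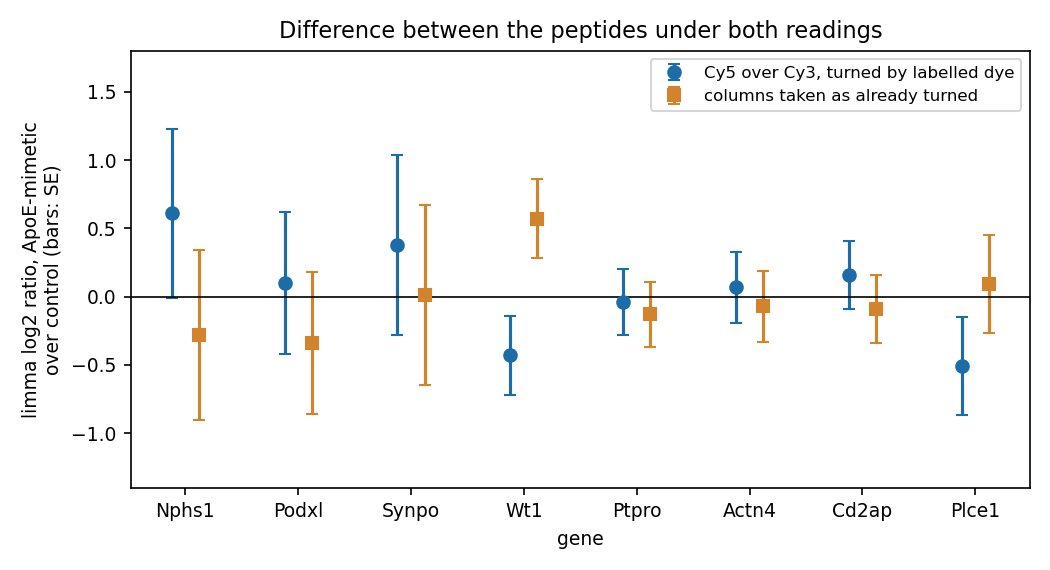
Log2 ratio of ApoE-mimetic over control for the 8 podocyte genes from limma, as the coefficient with its SE over 4 arrays, for the columns read as Cy5 over Cy3 (circles) and for the columns taken as already turned (squares). Nphs1 lies at 0.61 in the first reading and at -0.28 in the other, and Wt1 at -0.43 and 0.57.

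The median coefficient over the 8 genes was 0.09, against -0.02 over all named genes, and 5 of 8 were above 0, against 46.9% of all named genes. As already turned, the median was -0.08 against -0.02, and 3 of 8 were above 0, against 48.3%. The mean over arrays of the members' median, -0.01 ± 0.29 (SD, n = 4), differs in sign from the median coefficient, so neither has a direction to report. Leaving out 1 array moved Nphs1 between -0.20 and 1.41, with the lower value without replicate 3 and the higher without replicate 1, and Podxl between -0.41 without replicate 4 and 0.61 without replicate 2. Without replicate 4, Synpo had -0.56, and without replicate 2 it had 1.31. In bulk tissue, fewer podocytes in a slice and less RNA per podocyte cannot be told apart.

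Other podocyte genes were taken from 4 further lists holding 66 genes, of which 56 were measured. In limma's test 0 of the 56 had an adjusted p under 0.05, against 0% of all named genes. At an unadjusted p under 0.05 by limma there was 1 of the 56, against 3.39% of all named genes. Coefficients were below 0 for 41 of the 56 under the main reading, against 53.0% of all named genes. As already turned they were below 0 for 23 of the 56, against 51.7%. The medians were -0.13 over 13 partners of the slit diaphragm, -0.10 over 16 cytoskeletal genes, -0.19 over 14 genes of adhesion and the glomerular basement membrane and -0.08 over 13 transcription factors and secreted or surface markers. As already turned, these medians were 0.12, 0.04, 0.12 and -0.20. Their side therefore follows the reading of the columns for 3 of the 4 lists.

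Of the slit diaphragm partners, those with the smallest unadjusted p were Trpc6, the calcium channel of the podocyte, at -0.55 (SE 0.38), the adaptor Nck2 at -0.38 (SE 0.31), both from features dim or saturated on some arrays, and the polarity gene Pard3 at -0.37 (SE 0.27). Among cytoskeletal genes, Myo1e, a class I myosin of the foot process, had -0.93 (SE 0.29) from features of that kind, with an unadjusted p of 0.0260 and an adjusted p of 0.9999 by limma. Vcl, encoding vinculin, had -0.39 (SE 0.24) and the rhophilin gene Rhpn1 -0.38 (SE 0.38). For adhesion and basement membrane, the tetraspanin gene Cd151 had -0.47 (SE 0.26), Ilk, encoding integrin-linked kinase, -0.39 (SE 0.33), and Lamb2, the laminin beta 2 chain of the mature basement membrane, -0.37 (SE 0.33). Cd151 and Lamb2 each had 1 of 2 features neither dim nor saturated. With such features only, both lay below the median gene on replicate 4, against 0.47 and 0.58 with all features. Thsd7a and Pla2r1, which encode podocyte surface antigens targeted in human membranous nephropathy, had -0.85 (SE 0.34) and, from features that were dim or saturated on some arrays, -0.62 (SE 0.25), and the protease gene Htra1 had 0.55 (SE 0.33). For Thsd7a, 1 of 2 features was neither dim nor saturated. That feature alone lay above the median gene on replicate 3 and below it on replicate 4, against -0.08 and 0.61 for both features. None of these 12, which were ranked under the main reading, passed the test. As already turned, 10 of the 12 had the other sign, among them Myo1e at 0.53, Thsd7a at 0.11 and Htra1 at -0.69, while Pla2r1 had -0.20 and Lamb2 -0.03. That reading would rank other genes first, such as Kirrel1, a nephrin relative named after its values were seen, at 1.09 with an unadjusted p of 0.0472 from a feature dim or saturated on some arrays. It was the 1 gene of the 56 with an unadjusted p under 0.05 by limma in that reading, against 3.07% of all named genes.

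Cdkn1c, which encodes the cell cycle inhibitor p57 of mature podocytes, moved with Podxl and is named for that after its values were seen. It had -1.52, 1.42, 0.58 and -2.17 on replicates 1 to 4, on the sides of Podxl on 4 of 4 arrays. Of its 5 features, 4 were neither dim nor saturated, and these ran from -1.77 to -1.20 on replicate 1 and from -2.71 to -2.14 on replicate 4. Besides Nphs1 and Podxl, Cdkn1c and the collagen gene Col4a4 of the basement membrane were the podocyte-list genes at least 1 log2 unit below the median gene on both replicates 1 and 4. These were 2 of the 56, beside the 2.24% of all named genes. The limma coefficient of Cdkn1c was -0.05 (SE 0.72), and -0.42 as already turned.

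The medians of the proximal tubule and endothelial lists lay on the sides of podocalyxin, while single genes of these lists varied. Proximal tubule markers had medians of -1.21, 1.67, 1.11 and -0.84 on replicates 1 to 4 over 9 genes, on the sides of Podxl on 4 of 4 arrays and larger on replicates 2 and 3. Below the median gene on replicates 1 and 4 and above it on replicate 3 were 15.4% of all named genes and 3 of 8 podocyte members (Nphs1, Podxl and Cd2ap). So were 4 of 9 proximal tubule, 2 of 8 endothelial and 3 of 6 mesangial genes. Cd2ap was among them by -0.05 on replicate 4, where it had 0.10 with the grid trend removed. With dim and saturated features left out, Cd2ap no longer had this pattern, while Nphs1 and Podxl kept it. The 3 mesangial genes, Itga8, Gata3 and Thy1, rest on features dim or saturated on some arrays. Of parietal epithelium, T cell and macrophage genes there were 0. In the other podocyte lists there were 6 of 16 cytoskeletal and 5 of 14 adhesion and basement membrane genes. There were also 2 of 13 transcription factor and marker genes and 0 of 13 slit diaphragm partners. All these counts average every feature of a gene. With dim and saturated features left out, Cd9 of parietal epithelium had the pattern as well. The cytoskeletal, adhesion and marker genes that had it then changed in part. The 2 proximal tubule genes farthest from the median gene on replicates 1 and 4 are named after their values were seen. Slc34a1, the brush border phosphate transporter, had -2.54, 1.67, 1.63 and -2.40, and Slc22a6, an organic anion transporter, -4.18, 3.02, 1.81 and -5.15. Other proximal tubule genes differed, with Slc13a1 at 1.28 on replicate 1 and Cubn at 0.65 on replicate 4. Endothelial markers had medians of -0.56, 0.38, 0.10 and -1.07 over 8 genes, though Cdh5, the endothelial cadherin, had 1.25, -0.81, 0.08 and 1.56 from features dim or saturated on some arrays. T cell markers had 0.70, -1.63, -1.29 and -1.34 over 8 genes, opposite to Podxl on replicates 1, 2 and 3 and on its side on replicate 4. Macrophage markers had 0.65, -0.50, -0.99 and 0.46 over 6 genes, opposite to Podxl on 4 of 4 arrays. The part of these cells in the podocyte values was not tested.

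**Figure D3:**
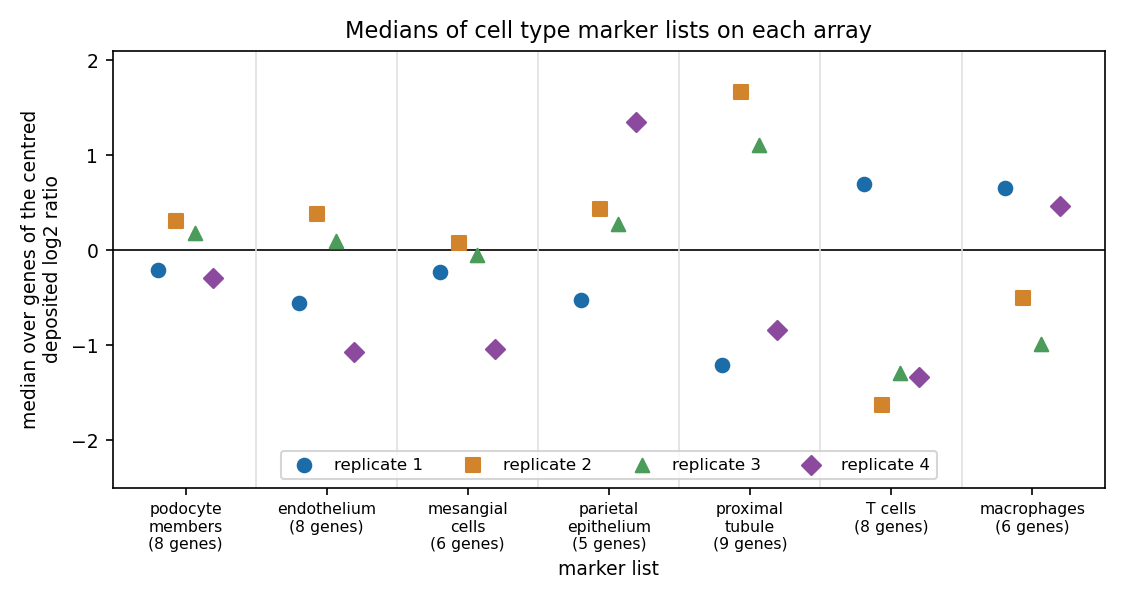
Median over the genes of each cell type list, on each of the 4 arrays, of the log2 ratio as deposited and relative to the array's median gene. Podocyte members lie between -0.29 and 0.31, on the same sides as the proximal tubule list, which runs from -1.21 to 1.67, and macrophage markers lie on the other side on every array.

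The list medians of the other cells of the glomerulus differed in side from the members' median on 1 array for mesangial cells, replicate 3, and on 1 array for parietal epithelium, replicate 4. With dim and saturated features left out, both lists differed from the members on replicate 1 as well. There the mesangial median was 0.01 over 3 genes and the parietal median 0.32 over 4, against -0.22 over 5 members. These differences were not tested. Mesangial markers had medians of -0.23, 0.08, -0.05 and -1.04 over 6 genes, with 3 of the 6 having a feature that was neither dim nor saturated. Parietal epithelium markers had -0.52, 0.43, 0.28 and 1.35 over 5 genes, with the highest value on replicate 4, where Nphs1 and Podxl were low. Of single genes searched over the 4 arrays, Kdr, the VEGF receptor of endothelium, lay nearest to Podxl, at a distance of 0.30 among 6726 genes, with -1.09, 0.56, 0.51 and -1.50. The monocarboxylate transporter gene Slc16a7 lay nearest to Nphs1, at 0.29. These 2 searches were added after the values were seen. The genes nearest to the mean of all 8 members, -0.36, 0.40, 0.38 and -0.54, were Cyyr1 at a distance of 0.09, Aars1 at 0.11, Edem3 at 0.12, Gde1 at 0.13, Mettl7a at 0.16 and Sertad1 at 0.18.

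**Figure D4:**
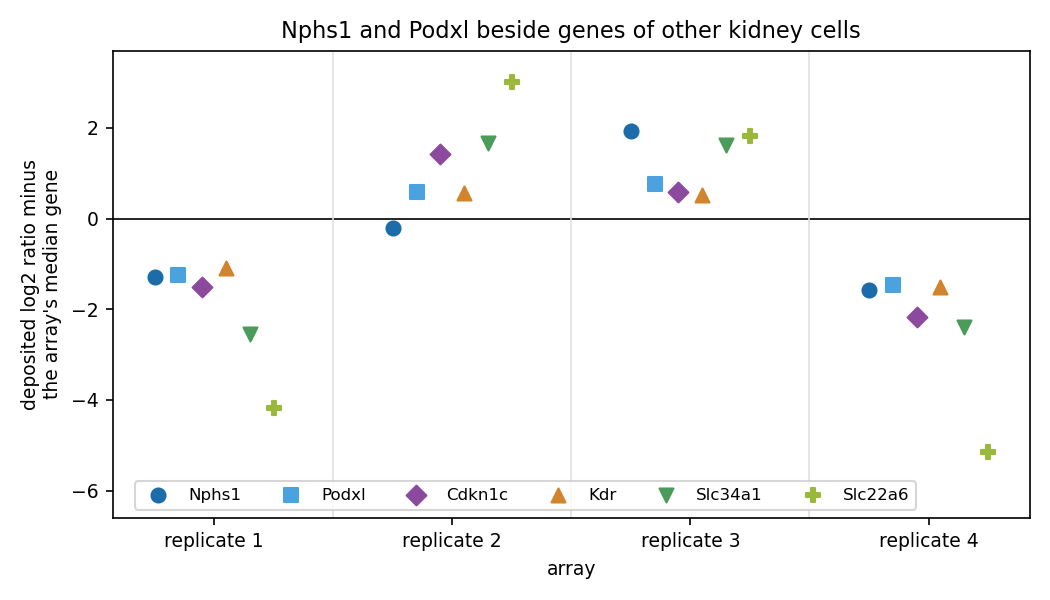
Log2 ratio, as deposited and relative to the array's median gene, of Nphs1 and Podxl beside Cdkn1c of podocytes, Kdr of endothelium and Slc34a1 and Slc22a6 of the proximal tubule; each point is 1 gene on 1 array. The genes beside Nphs1 and Podxl were picked for this pattern, and others of their lists, such as Cdh5 and Cubn, lie above 0 on replicate 4. The 6 genes drawn lie below -1 on replicates 1 and 4 and above 0 on replicate 3, and on replicate 2 Nphs1 alone is below 0.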

How the data were processed

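The deposited values are channel ratios, 1 column per array, taken as log2 from their size: they reach 11.33, above 11.09, which is the natural log of a 16-bit range. That range is an assumption, since no label names the scanner. The log base, the direction, the background correction and the normalization of the deposited log2 ratios are not stated in any label or header. Per the labels' protocols, total RNA was labelled with an Agilent two-colour kit in a dye swap with 4 biological replicates. Values were missing for 26 to 58 of 45220 features per array and for none of the 14 features described. Gene symbols came from the array annotation (1 symbol for 25353 features, several for 48, none for 19819), and 25306 features were found by gene number in RefSeq's GRCr8 table, which updated 1 symbol. Each array was centred on its median named gene. Here limma 3.58.1 in R 4.3.3 (lmFit, eBayes, two-sided, Benjamini-Hochberg over all genes) fitted a treatment coefficient by labelled dye and a dye coefficient, which is the treatment effect if the columns were already turned. The fit was also run on simulated data, which does not show how small a change it would find in these arrays. The number of arrays limits the precision. The members and the gene lists were chosen with earlier results of these data known. Named are all 8 members, up to 3 genes per podocyte list with the smallest unadjusted p and the 6 genes nearest to the members' mean; others are named as such. The alternatives were no centring, no dye term, columns already turned, and dim and saturated features left out. Others were the grid trend removed (85 columns, read from the feature numbers), scaled arrays and the median over features. Leaving out each replicate, robust eBayes, array weights and single features were also run.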

Additional observations from a re-analysis of the deposited data

Results flagged for a closer look

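In 2 of 38 sets of 4 array values tested, the 8 members and 11 lists under both orientations, 1 array stood apart by Dixon's ratio of gap to range, and chance gives about 1 in 20. Both are lists of other cells. The median of the mesangial markers, turned to ApoE over control, had a ratio of 0.856, with replicate 4 at 1.04 against -0.23, -0.08 and -0.05. The median of the T cell markers, as deposited, had 0.852, with replicate 1 at 0.70 against -1.63, -1.29 and -1.34. No podocyte member had an array that stood apart by this measure.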

How the results depend on the processing

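No gene was called under the main fit or any of its 14 alternatives. The number with an unadjusted p under 0.05 by limma was 504 of 14871 genes in the main fit. It ran from 95 of 6731 genes with dim and saturated features left out to 1756 of 45220 single features. Without replicate 2 it was 1183 of 14871 genes. The median over the members, 0.09, ran from -0.14 to 0.14 when 1 replicate was left out, and moved by less than the SD between arrays under every alternative run. Of 85 values of members under 11 alternatives, 16 changed sign and none had an adjusted p under 0.05 by limma. With columns already turned, Nphs1 had -0.28, Podxl -0.34, Wt1 0.57, Actn4 -0.07, Cd2ap -0.09 and Plce1 0.09. With scaled arrays Podxl had -0.05, without centring Ptpro had 0.03, and with the median over features Cd2ap had -0.02. Leaving out 1 replicate gave -0.20 to 1.41 for Nphs1, -0.41 to 0.61 for Podxl, -0.56 to 1.31 for Synpo, -0.09 to 0.01 for Ptpro and -0.06 to 0.21 for Actn4, with a change of sign in each, and -0.69 to -0.18 for Wt1, 0.05 to 0.27 for Cd2ap and -0.82 to -0.20 for Plce1. The cause was not tested. Synpo, Wt1 and Plce1 are limited by features that were dim or saturated and have no value with such features left out. Every value is a ratio within a pair, so no further blocking was fitted.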
